A study of Bos taurus with 9 samples.

Results

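The abundance of the transcripts for 10 genes that govern how mitochondria are made, joined, divided and removed was examined in the liver of lactating Holstein cows. The genes were chosen by name, with earlier results of these data known. They comprised the biogenesis regulators *PPARGC1A* and *NRF1*, the mitophagy genes *PINK1*, *BNIP3*, *BNIP3L* and *FUNDC1*, the fusion genes *MFN1*, *MFN2* and *OPA1*, and the fission gene *DNM1L*. All 10 were found among the 28786 genes listed in the count table. The cows were kept in 3 conditions, namely thermoneutrality with free feed intake (TN), thermoneutrality with feed limited to what the heat-stressed cows ate (PF), and heat stress with a hotter day than night (HS). Each group held 3 cows, each cow gave 1 liver biopsy and 1 poly(A)-selected RNA library, and the cows of all groups had first been held at thermoneutrality. The biopsies were taken on the same day of treatment, but the groups differed in average days in milk, and the ages of the cows were not given in the sources used here. HS against PF compares heat at matched intake, and PF against TN compares intake without heat.

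Mitochondria are renewed by a balance of synthesis, fusion, fission and selective removal. *PPARGC1A* encodes PGC-1α, a transcriptional coactivator that is induced in the liver by fasting and glucagon, and that drives mitochondrial genes together with nuclear respiratory factor 1 (*NRF1*) and estrogen-related receptors. Fusion of the outer membrane relies on the mitofusins and fusion of the inner membrane on OPA1, while the dynamin-like GTPase DRP1, the product of *DNM1L*, constricts and divides the organelle. In mitophagy, damaged mitochondria are marked with phosphorylated ubiquitin by the kinase PINK1, or are bound directly by receptors of the outer membrane such as BNIP3, BNIP3L (also named NIX) and FUNDC1, and are then enclosed by an autophagosome.

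The libraries held between 16874444 and 22557047 reads counted on genes. Values are given as CPM, the counts scaled to the library size after TMM normalization, and a count of 0 would allow up to 3 counts, which is at most 0.202 CPM in these libraries and covers counting error only. Each of the 10 genes had at least 89 counts in every library. Levels of different genes were not compared, because the lengths counted over were not given. The hepatocyte markers were high in all 9 libraries, and 3 of 9 skeletal muscle markers had no count in any library, with a summed level of the list of at most 0.769 CPM. Of 6 adipose markers, 2 were at or under the limit of 3 counts in every library, 1 of them with no count in any. Over that limit in every library were 3. The summed level of 17.1 to 33.3 CPM was led by *CIDEA*, with means of 19.7 CPM under TN, 19.9 CPM under PF and 17.4 CPM under HS. TN replicate 1 stood apart from the other libraries, with a summed level of the 10 hepatocyte markers of 16512 CPM against 55562 to 112516 CPM elsewhere and the highest TMM factor, 1.33, where the lowest was 0.869. The share of counts on the 13 mitochondrially encoded protein genes was 13.6% to 22.2% in the TN group, 6.90% to 7.79% in the PF group and 3.84% to 5.68% in the HS group.

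None of the 10 genes differed between the groups by the criteria for a differentially expressed gene (DEG), which were an edgeR FDR below 0.1 together with a change of more than 1.5-fold. Between the HS and TN groups 0 of 10 were DEGs, where 0.0892% of all 14582 genes tested were, and the log2 fold changes ran from -0.23 for *NRF1* to 0.38 for *BNIP3*. Between the HS and PF groups 0 of 10 were DEGs, against 0.0276% of 14510 genes, with log2 fold changes from -0.31 for *NRF1* to 0.54 for *PPARGC1A*. Between the PF and TN groups edgeR called 0 of 10, as it called 0 of 14580 genes, with log2 fold changes from -0.31 for *PPARGC1A* to 0.48 for *BNIP3*. The number of the 10 genes with an unadjusted p under 0.05 was 0 in each comparison, where the share over all genes was 9.36%, 5.31% and 6.88% in the same order. DESeq2 also called 0 of the 10 in each comparison, with 1.75%, 0.771% and 0.555% of all genes called. A log2 fold change above 0 was found for 6 of the 10 between HS and TN, 4 between HS and PF and 8 between PF and TN, where 49.3%, 50.9% and 48.8% of all genes had one. In a test of the 3 groups together edgeR called 0 of the 10 against 0.0464% of 15073 genes, 0 had an unadjusted p under 0.05 against 7.86%, and DESeq2 called 0 against 1.89%. The lowest FDR among the 10 in that test was 0.781, for *BNIP3*, by edgeR.

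**Figure D1:**
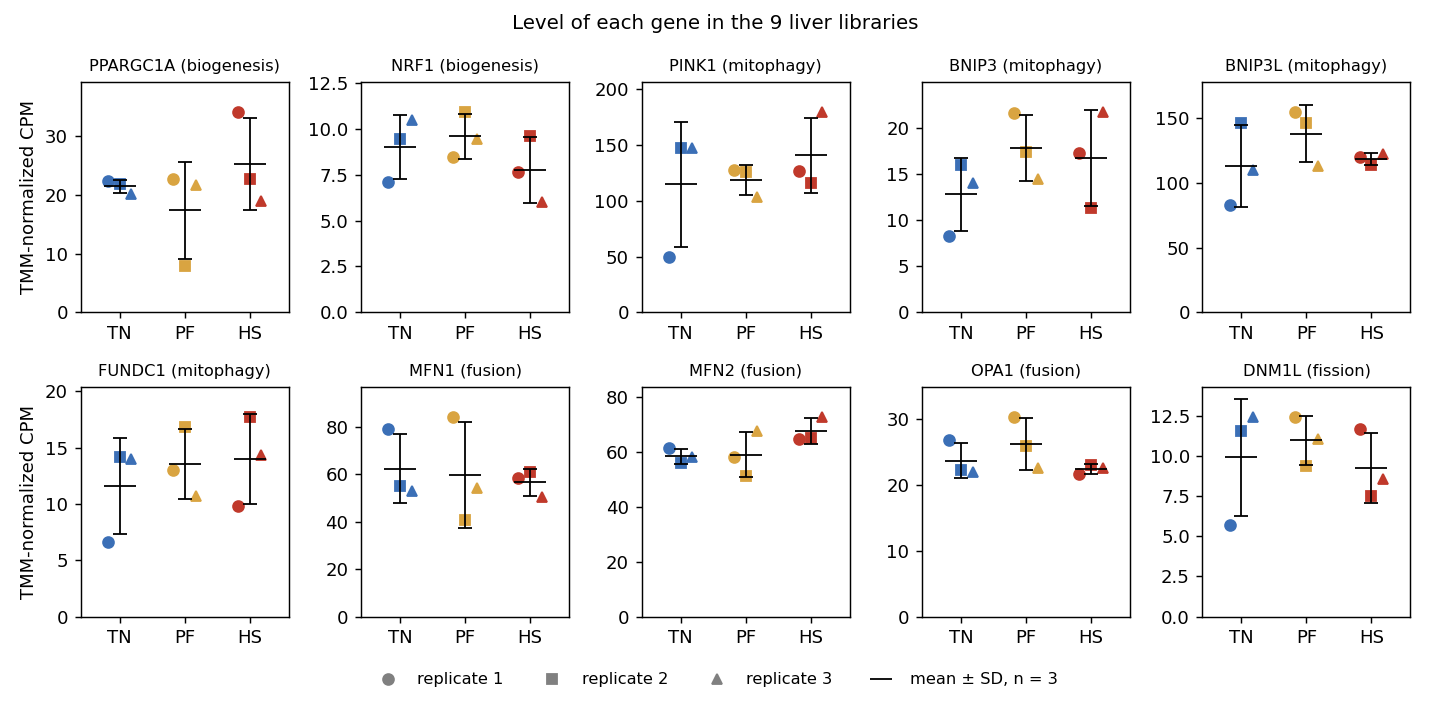
TMM-normalized CPM of the 10 genes (y axes from 0) in the TN, PF and HS groups, with a symbol for each cow by replicate number and bars for the mean ± SD of n = 3 cows. The groups overlap in every panel in every pairing, except that the HS cows lie above the TN cows for *MFN2*, and TN replicate 1 is lowest for *PINK1*, *BNIP3*, *BNIP3L*, *FUNDC1* and *DNM1L*.

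A fold change over 1.5 in either direction was seen in 0 of the 10 genes in each comparison, while 22.9% of all genes exceeded it between HS and TN, 16.1% between HS and PF and 22.8% between PF and TN. All 30 confidence intervals (95%, edgeR) of the log2 fold changes held 0. They lay within a 2-fold change in either direction for 7 of 10 genes between HS and TN, 9 of 10 between HS and PF and 8 of 10 between PF and TN. The exceptions were *PINK1*, *BNIP3* and *FUNDC1* between HS and TN, *PPARGC1A* between HS and PF, and *PPARGC1A* and *BNIP3* between PF and TN. The ratio of the highest to the lowest of the 9 libraries had a median of 2.12 over the 10 genes and of 2.65 over the 15073 genes that passed the filter on low counts. The genes behind these ratios and shares were not matched to the 10 for level, and counting error weighs more on genes with low counts.

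**Figure D2:**
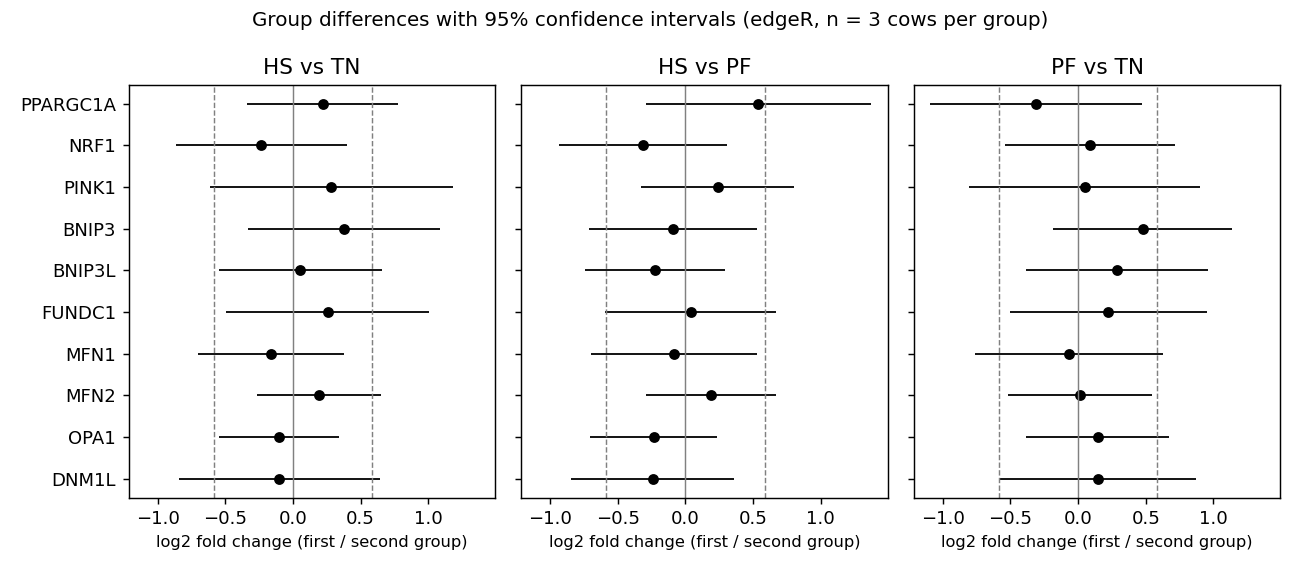
The log2 fold change of each gene (points, x axis) in the 3 comparisons, with its 95% confidence interval (lines, edgeR, n = 3 cows per group); dashed lines mark a fold change of 1.5. Every interval crosses 0, the lowest bound being -1.09 and the highest 1.37, both for *PPARGC1A*.

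*PPARGC1A*, the PGC-1α gene, was at 22.3, 21.9 and 20.1 CPM in TN replicates 1, 2 and 3, at 22.7, 7.82 and 21.6 CPM in PF replicates 1, 2 and 3, and at 34.0, 22.7 and 19.0 CPM in HS replicates 1, 2 and 3. The groups overlapped, with 7 of the 9 cows between 19.0 and 22.7 CPM, PF replicate 2 far below them and HS replicate 1 above. Between the HS and PF groups the log2 fold change was 0.54 (SE 0.38, FDR 1.00, edgeR), with an interval from -0.29 to 1.37. Without PF replicate 2 it was 0.19, and without HS replicate 1 it was 0.26. Between PF and TN it was -0.31 (SE 0.36, FDR 0.825) and became 0.05 without PF replicate 2, and between HS and TN it was 0.22 (SE 0.25, FDR 0.771) and became -0.06 without HS replicate 1. In RefSeq (ARS-UCD2.0) a tRNA gene and a snRNA gene overlap *PPARGC1A*.

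The transcription factor gene *NRF1* was at 7.11, 9.44 and 10.5 CPM in the TN cows, at 8.46, 10.9 and 9.42 CPM in the PF cows and at 7.64, 9.58 and 5.98 CPM in the HS cows. Each group overlapped the others, the lowest value being in HS replicate 3 and the highest in PF replicate 2. Its log2 fold change was -0.23 (SE 0.28, FDR 0.784, edgeR) between HS and TN, -0.31 (SE 0.28, FDR 1.00) between HS and PF, and 0.09 (SE 0.29, FDR 0.939) between PF and TN. The first moved to -0.080 without HS replicate 3 and to -0.41 without HS replicate 2, and the second to -0.16 and -0.49 without the same cows.

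Of 14 further genes of mitochondrial biogenesis, 13 had enough counts to be tested, 0 were DEGs by edgeR in any comparison and 0 had an unadjusted p under 0.05. Of all genes tested, edgeR called 0.0892% between HS and TN, 0.0276% between HS and PF and 0% between PF and TN. An unadjusted p under 0.05 was found for 9.36%, 5.31% and 6.88% in the same order. These shares apply to each list below. The median log2 fold change of the 13 was -0.21 between HS and TN, -0.05 between HS and PF and -0.07 between PF and TN. The gene with the smallest p between HS and TN was *PRKAA1*, a catalytic subunit of the energy sensor AMPK, with 24.3, 24.3 and 25.1 CPM in the 3 TN libraries and 22.7, 18.4 and 16.2 CPM in the 3 HS libraries (log2 fold change -0.38, SE 0.21, FDR 0.574). Between HS and PF it was *ESRRA*, the nuclear receptor ERRα with which PGC-1α acts, with 36.1 ± 6.20 CPM under HS against 25.0 ± 7.18 CPM under PF (SD, n = 3; log2 fold change 0.52, SE 0.27, FDR 0.956, edgeR), and the value was 0.31 without PF replicate 1. *ESRRA* overlaps *TRMT112* in RefSeq. The strand setting was not stated, so how reads in a stretch shared by overlapping genes were counted is not known. Between PF and TN the smallest p was that of *PPRC1*, a coactivator of the PGC-1 family that overlaps a snoRNA gene in RefSeq. It had 6.10 ± 2.94 CPM under PF against 11.2 ± 3.91 CPM under TN (SD, n = 3). The log2 fold change was -0.88 (SE 0.41, FDR 0.708, edgeR), and it was -0.57 without TN replicate 1 and -0.58 without PF replicate 1.

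*PINK1*, the kinase that marks damaged mitochondria, was at 50.1, 148 and 147 CPM in the TN cows, at 127, 126 and 103 CPM in the PF cows and at 127, 116 and 179 CPM in the HS cows. TN replicate 1 was below every other cow and the other TN cows were above every PF cow, so the mean of the TN group, 115 ± 56.2 CPM (SD, n = 3), described none of its cows. The log2 fold change between HS and TN was 0.28 (SE 0.40, FDR 0.819, edgeR), with the widest interval of any of the 10 genes in that comparison, from -0.61 to 1.18. Without TN replicate 1 it was -0.07 (SE 0.27), and that between PF and TN moved from 0.05 (SE 0.39) to -0.31 (SE 0.24). Between HS and PF the log2 fold change of *PINK1* was 0.24 (SE 0.26, FDR 1.00, edgeR).

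*BNIP3*, a receptor gene known as a target of the hypoxia-inducible factor HIF-1, was at 8.32, 16.0 and 14.0 CPM in the TN cows, at 21.5, 17.3 and 14.5 CPM in the PF cows and at 17.2, 11.3 and 21.7 CPM in the HS cows. Its mean was lowest in the TN group, but PF replicate 3 and HS replicate 2 lay within or below the range of the other TN cows. It had the largest log2 fold changes against the TN group among the 10 genes, 0.48 for PF (SE 0.30, FDR 0.722, edgeR, interval -0.19 to 1.14) and 0.38 for HS (SE 0.32, FDR 0.694, interval -0.33 to 1.09). Both comparisons use the same TN cows, and without TN replicate 1 the values were 0.25 and 0.16. Between HS and PF the log2 fold change of *BNIP3* was -0.09 (SE 0.28, FDR 1.00, edgeR).

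*BNIP3L*, its paralog, which is known for clearing mitochondria from maturing red blood cells, was at 82.7, 146 and 110 CPM in the TN cows, at 155, 147 and 114 CPM in the PF cows and at 120, 114 and 122 CPM in the HS cows. The HS cows were close together and fell inside the range of both other groups. Its log2 fold changes were 0.05 (SE 0.27, FDR 0.956, edgeR) between HS and TN, -0.23 (SE 0.24, FDR 1.00) between HS and PF and 0.29 (SE 0.31, FDR 0.810) between PF and TN. The ratio of *BNIP3* to *BNIP3L* counts, which does not depend on the normalization, was 0.112 ± 0.0134 for TN, 0.128 ± 0.0106 for PF and 0.140 ± 0.0392 for HS (SD, n = 3). It ranged from 0.0991 in HS replicate 2 to 0.177 in HS replicate 3, so the extremes of the ratio lay in the same group.

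*FUNDC1*, a receptor whose binding to autophagosome proteins is controlled by phosphorylation, was at 6.66, 14.1 and 14.0 CPM in the TN cows, at 13.01, 16.9 and 10.7 CPM in the PF cows and at 9.81, 17.8 and 14.3 CPM in the HS cows. All 3 groups overlapped. Its log2 fold change was 0.26 (SE 0.33, FDR 0.802, edgeR) between HS and TN, 0.04 (SE 0.29, FDR 1.00) between HS and PF and 0.22 (SE 0.33, FDR 0.862) between PF and TN, and without TN replicate 1 the values against the TN group were -0.02 and -0.05.

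Of 14 genes of the ubiquitin branch of mitophagy, all were tested, 0 were DEGs by edgeR and 0 had an unadjusted p under 0.05 in any comparison. Such a p was found for 9.36% of all genes between HS and TN, 5.31% between HS and PF and 6.88% between PF and TN. Between HS and TN 10 of the 14 had a log2 fold change above 0, where 49.3% of all genes did, and the median was 0.19. In the comparison of PF with TN 10 of the 14 were above 0 (median 0.20, against 48.8% of all genes), and in that of HS with PF 6 of the 14 (median -0.04, against 50.9%). The comparisons of HS and of PF with TN rest on the same TN cows. Between HS and TN the smallest p of the list was that of *TOMM7*, a part of the import complex that holds PINK1 at the outer membrane. *TOMM7* had 16.6 ± 5.58 CPM under HS against 12.3 ± 2.20 CPM under TN (SD, n = 3). The log2 fold change was 0.42 (SE 0.28, FDR 0.632, edgeR), and it was 0.15 without HS replicate 2 and 0.64 without HS replicate 1. *USP30*, a mitochondrial deubiquitinase that overlaps *ALKBH2* in RefSeq, had the smallest p between PF and TN, with 11.5 ± 4.03 and 16.8 ± 3.80 CPM (SD, n = 3; log2 fold change -0.55, SE 0.32, FDR 0.709, edgeR), moving to -0.32 without PF replicate 2 and -0.84 without PF replicate 3.

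Of 9 further genes of receptor-mediated mitophagy, 0 were DEGs by edgeR, and the only one with an unadjusted p under 0.05 was *NIPSNAP2*, between PF and TN. This mitochondrial protein gathers autophagy adaptors on damaged mitochondria. It was at 79.9, 54.3 and 67.0 CPM in TN cows, at 39.9, 35.0 and 42.8 CPM in PF cows and at 58.6, 46.3 and 32.7 CPM in HS cows, so that every PF cow was below every TN cow. Its log2 fold change was -0.78 (SE 0.25, FDR 0.697, edgeR) between PF and TN and -0.57 (SE 0.27, FDR 0.532) between HS and TN, the latter being -0.37 without HS replicate 3. The groups did not overlap, in either direction, in 13.2% of all genes between PF and TN. *FBXL4*, part of a ubiquitin ligase that limits BNIP3 and BNIP3L, had the smallest p of this list between HS and PF, with 11.8 ± 1.94 and 16.1 ± 4.56 CPM (SD, n = 3; log2 fold change -0.45, SE 0.27, FDR 1.00, edgeR), and -0.20 without PF replicate 1.

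Among the fusion genes, *MFN1* was at 79.1, 55.2 and 52.9 CPM in the TN cows, at 84.4, 40.9 and 54.3 CPM in the PF cows and at 58.5, 60.9 and 50.3 CPM in the HS cows. The PF group held both its lowest and its highest value. Its log2 fold changes were -0.16 (SE 0.24, FDR 0.825, edgeR) between HS and TN, -0.08 (SE 0.28, FDR 1.00) between HS and PF and -0.06 (SE 0.32, FDR 0.958) between PF and TN.

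*MFN2*, which also tethers mitochondria to the endoplasmic reticulum, was at 61.3, 56.0 and 58.1 CPM in the TN cows, at 58.3, 51.4 and 67.6 CPM in the PF cows and at 64.9, 65.0 and 73.0 CPM in the HS cows. Every HS cow exceeded every TN cow, while the PF cows overlapped both other groups. For the rest of the 10 genes the groups overlapped in every comparison. Over all genes the groups did not overlap in 16.1% between HS and TN, with HS above TN in 8.37%. The share was 10.5% between HS and PF and 13.2% between PF and TN. The gap between the groups was small, from 61.3 CPM in the highest TN cow to 64.9 CPM in the lowest HS cow, and the log2 fold change was 0.19 (SE 0.20, FDR 0.756, edgeR), with an interval from -0.27 to 0.65. It was 0.19 (SE 0.22, FDR 1.00) between HS and PF and 0.01 (SE 0.24, FDR 0.990) between PF and TN. The ratio of *MFN1* to *MFN2* counts was 1.06 ± 0.201 for TN, 1.02 ± 0.374 for PF and 0.843 ± 0.134 for HS (SD, n = 3), with the groups overlapping.

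*OPA1*, the GTPase of the inner membrane that also shapes the cristae, was at 26.8, 22.3 and 22.0 CPM in the TN cows, at 30.4, 26.0 and 22.5 CPM in the PF cows and at 21.6, 23.1 and 22.5 CPM in the HS cows. It varied least of the 10 genes, by 1.41-fold from the lowest to the highest library. Its log2 fold change was -0.10 (SE 0.20, FDR 0.873, edgeR) between HS and TN, -0.23 (SE 0.21, FDR 1.00) between HS and PF and 0.14 (SE 0.24, FDR 0.877) between PF and TN. A protein-coding gene, *LOC112447410*, overlaps it in RefSeq.

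Of 13 further genes of fusion and cristae, 12 were tested and 0 were DEGs by edgeR. *OMA1*, the stress-activated protease that cleaves OPA1, was at 4.78, 6.67 and 4.77 CPM in TN cows, at 9.17, 7.93 and 8.71 CPM in PF cows and at 8.63, 7.60 and 12.8 CPM in HS cows. Every HS and every PF cow thus exceeded every TN cow. Of all genes, 8.37% had every HS cow above every TN cow. Between PF and TN, 13.2% had groups that did not overlap in either direction. On the log2 scale the difference of *OMA1* was 0.82 (SE 0.30, FDR 0.473, edgeR) between HS and TN and 0.67 (SE 0.31, FDR 0.708) between PF and TN. Both rest on the same TN cows. *OMA1* had 0.75 (SE 0.33) and 0.59 (SE 0.32) without TN replicate 1, and a lncRNA gene overlaps it in RefSeq. *PHB1*, listed as *PHB* in the table, encodes a scaffold protein of the inner membrane. It was at 69.6, 177 and 177 CPM in TN cows and at 164, 218 and 152 CPM in PF cows. The HS cows were at 228, 256 and 328 CPM, each above every cow of the other groups. Of all genes, 8.37% had HS above TN without overlap, and 10.5% did not overlap in either direction between HS and PF. The log2 fold change of *PHB1* was 0.60 (SE 0.27, FDR 0.927, edgeR) between HS and PF. Between HS and TN, a value chosen after it was seen, it was 0.93 (SE 0.38, FDR 0.504), and 0.61 (SE 0.27) without TN replicate 1.

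*DNM1L*, the DRP1 gene, was at 5.72, 11.6 and 12.5 CPM in the TN cows, at 12.5, 9.38 and 11.1 CPM in the PF cows and at 11.7, 7.54 and 8.61 CPM in the HS cows. The groups overlapped, and TN replicate 1 was again the lowest library. Its log2 fold changes were -0.10 (SE 0.33, FDR 0.933, edgeR) between HS and TN, -0.24 (SE 0.27, FDR 1.00) between HS and PF and 0.15 (SE 0.33, FDR 0.914) between PF and TN. Without TN replicate 1 the first was -0.37 and the last -0.13. *YARS2* and a pseudogene overlap *DNM1L* in RefSeq.

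Of 10 further fission genes, 9 were tested between HS and either other group and 8 between PF and TN, and 0 were DEGs by edgeR. *MTFP1*, a fission factor of the inner membrane, was at 23.6, 15.2 and 20.5 CPM in TN cows, at 10.3, 10.7 and 14.5 CPM in PF cows and at 25.7, 22.96 and 20.3 CPM in HS cows. The PF cows were below every cow of the other groups. In either direction, the groups did not overlap in 10.5% of all genes between HS and PF and in 13.2% between PF and TN. On the log2 scale the difference of *MTFP1* was 0.96 (SE 0.24, FDR 0.405, edgeR) between HS and PF and -0.74 (SE 0.28, FDR 0.708) between PF and TN. DESeq2 gave an FDR of 0.123 for the former. *MTFP1* overlaps *SEC14L3* in RefSeq, so its reads may in part be those of the other gene. *INF2*, a formin that helps actin constrict mitochondria and that overlaps a lncRNA gene, had means of 29.6 ± 8.07 CPM under TN, 18.3 ± 5.37 CPM under PF and 21.4 ± 2.44 CPM under HS (SD, n = 3). Its log2 fold change was -0.49 (SE 0.25, FDR 0.553, edgeR) between HS and TN and, chosen after its value was seen, -0.69 (SE 0.30, FDR 0.708) between PF and TN. Without TN replicate 1 the former was -0.25. Of the 4 genes of mitochondrial transport along microtubules, 0 were DEGs by edgeR and 0 had an unadjusted p under 0.05. The share of all genes with such a p was 9.36% between HS and TN, 5.31% between HS and PF and 6.88% between PF and TN. *RHOT1*, which encodes the adaptor Miro1 and overlaps a miRNA gene in RefSeq, had the smallest p against TN. It was at -0.40 on the log2 scale for HS (SE 0.22, FDR 0.579) and -0.55 for PF (SE 0.28, FDR 0.709). *TRAK1*, a motor adaptor, had the smallest p between HS and PF, with 0.55 (SE 0.40, FDR 1.00). The value of *TRAK1* was 0.19 without PF replicate 2, 0.29 without HS replicate 2 and 1.02 without PF replicate 3.

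**Figure D3:**
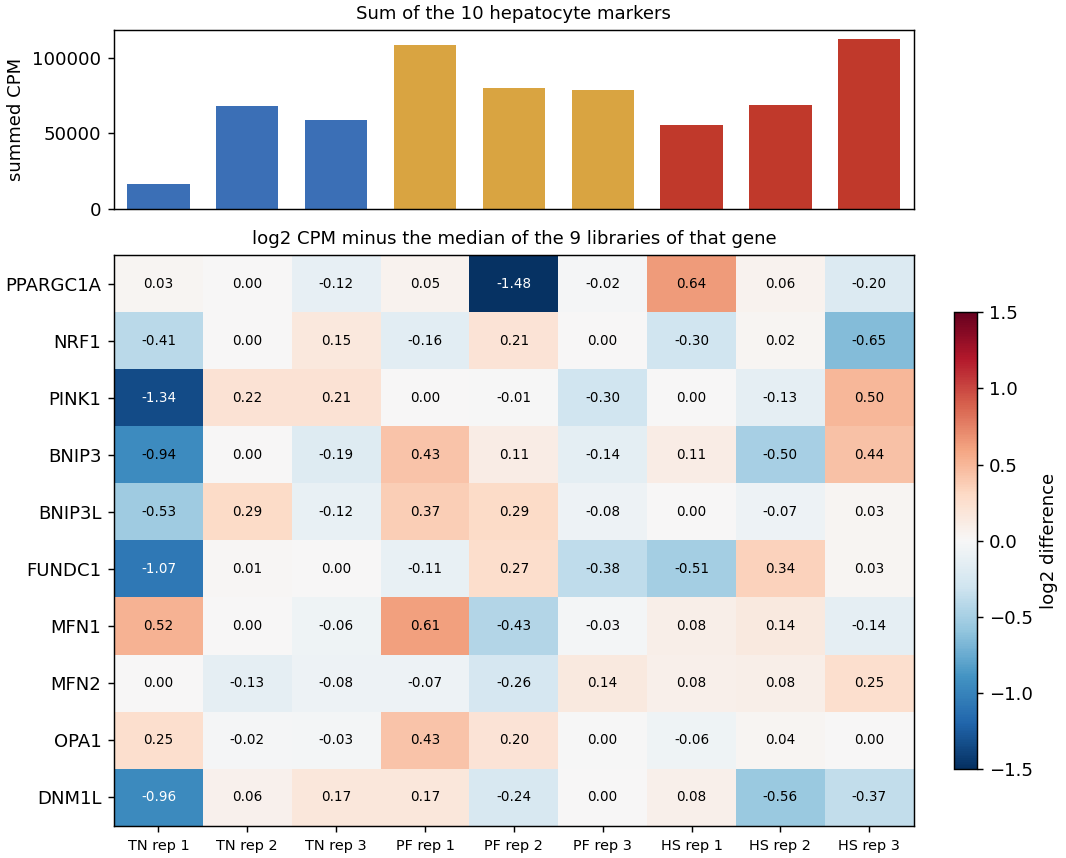
Top, summed CPM of 10 hepatocyte marker genes in each library (bars from 0, coloured by group). Bottom, log2 CPM of each of the 10 genes minus its median over the 9 libraries (colour and printed value), where TN replicate 1 is at -1.34 for *PINK1* and PF replicate 2 at -1.48 for *PPARGC1A*.

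TN replicate 1 had the lowest value of 5 of the 10 genes and the highest of none. Extremes also lay in other libraries. PF replicate 1 had the highest value of 4 genes. PF replicate 2 had the highest of 1 and the lowest of 3, and HS replicate 3 the highest of 3 and the lowest of 1. How the variation divides among the libraries was not tested. As a percentage of the median of the other 8 libraries, TN replicate 1 held 39.4% of *PINK1*, 47.4% of *FUNDC1*, 50.1% of *BNIP3*, 50.4% of *DNM1L* and 68.4% of *BNIP3L*. Of the other genes, *NRF1* was also below that median in it, at 75.4%. *PPARGC1A* was at 103%, *MFN2* at 99.6%, *OPA1* at 119% and *MFN1* at 145%. The summed level of the 10 hepatocyte markers was also lowest in this library, as given above. That sum was led by *ALB*, with a mean of 30499 CPM in the TN group. By group mean, *HNF4A* and *APOB* were lower under HS than TN, and every other marker of the list was higher. The means under TN and HS were 411 and 355 CPM for *HNF4A* and 996 and 889 CPM for *APOB*. The part of hepatocyte content in these values was not tested, and in bulk tissue fewer cells of a type and less RNA per cell cannot be told apart. Without this cow, 5 of the 10 genes changed the sign of their difference between HS and TN and 5 between PF and TN, and the median log2 fold change of the 10 moved from 0.12 to -0.0018 and from 0.12 to 0.0021.

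**Figure D4:**
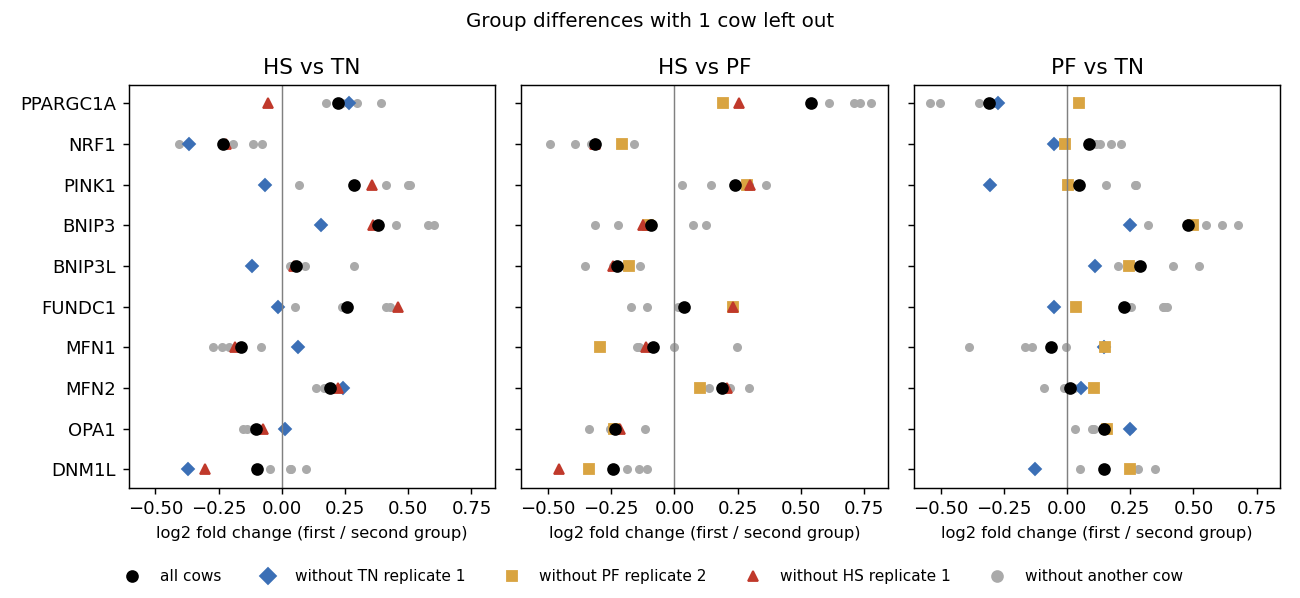
The log2 fold change (x axis) of each gene with all cows (black) and with 1 cow left out of the comparison (other symbols, edgeR). Leaving out TN replicate 1 moves *PINK1* to -0.07 between HS and TN and to -0.31 between PF and TN, and leaving out PF replicate 2 moves *PPARGC1A* to 0.19 between HS and PF.

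The wider machinery was described in the same way. Of 99 further genes in 9 lists, 96 were tested between HS and TN and between HS and PF, and 95 between PF and TN. In these comparisons edgeR called 0 of them, where it called 0.0892%, 0.0276% and 0% of all genes. At such shares a list of this size would be likely to hold hardly any call. An unadjusted p under 0.05 was found for 3 genes with higher (4.13% of all genes) and 2 with lower levels (5.23%) under HS than TN. Between HS and PF it was found for 2 with higher (3.07%) and 0 with lower levels (2.25%) under HS, and between PF and TN for 0 with higher (2.99%) and 4 with lower levels (3.89%) under PF. DESeq2 called 1 of these genes between HS and TN (1.75% of all genes), 0 between HS and PF (0.771%) and 0 between PF and TN (0.555%). The groups did not overlap for 7 of the 96 genes with higher and 8 with lower levels under HS than TN, for 3 and 3 under HS than PF, and for 8 and 4 of the 95 under PF than TN, where 16.1%, 10.5% and 13.2% of all genes did not overlap in either direction. The median log2 fold change of the tested genes was 0.05, -0.03 and 0.10 in these comparisons, beside -0.01, 0.01 and -0.01 over all genes tested. These medians depended on single cows. Between PF and TN the median became 0.028 without TN replicate 1, beside 0.0061 over all genes, and 15 genes turned sign. Between HS and PF it became 0.055 without PF replicate 1, beside 0.023 over all genes, and 24 genes turned sign.

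The gene called by DESeq2 was *ULK1*, the kinase that starts autophagosome formation. It was at 322, 143 and 227 CPM in TN cows, at 109, 83.0 and 148 CPM in PF cows and at 90.7, 118 and 109 CPM in HS cows. The HS cows were all below the TN cows, where 16.1% of all genes had no overlap in either direction, while PF replicate 3 lay within the TN range. Between HS and TN its log2 fold change was -1.15 (SE 0.34, FDR 0.396, edgeR), with an FDR of 0.0487 in DESeq2, and over the alternatives its FDR ranged from 0.0487 to 0.765. Between PF and TN it was -1.03 (SE 0.37, FDR 0.701, edgeR). Without TN replicate 1, the library with the highest level, the values of *ULK1* were -0.81 (SE 0.27, FDR 0.676) and -0.70 (SE 0.32). Of the other 18 genes of autophagosome formation, none had an unadjusted p under 0.05 in any comparison by edgeR. The smallest p of the list between HS and PF was that of *MAP1LC3A*, a member of the LC3 family to which the receptors bind, with 61.9 ± 2.64 and 83.8 ± 20.0 CPM (SD, n = 3; log2 fold change -0.44, SE 0.24, FDR 0.977, edgeR), and it was -0.24 without PF replicate 2.

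Among 6 transcription factors known to act on mitophagy and autophagy genes, *FOXO3* was at 36.5, 47.7 and 41.5 CPM in TN cows, at 64.5, 49.9 and 45.7 CPM in PF cows and at 68.2, 52.2 and 60.7 CPM in HS cows, above every TN cow in the HS group, as were 8.37% of all genes. *FOXO3*, which drives *BNIP3* and *BNIP3L* in muscle, differed on the log2 scale by 0.51 between HS and TN (SE 0.21, FDR 0.509, edgeR), by 0.35 between PF and TN (SE 0.25, FDR 0.740) and by 0.17 between HS and PF (SE 0.23, FDR 1.00). With 1 cow left out, the last of these ranged from 0.070 to 0.34, and that between PF and TN was 0.19 without PF replicate 1. None of the 6 was a DEG by edgeR. Of 10 targets of the hypoxia-inducible factors, a group to which *BNIP3* also belongs, 0 were DEGs by edgeR, and the median log2 fold change was -0.07 between HS and TN, -0.09 between HS and PF and 0.14 between PF and TN. *KDM3A*, a histone demethylase, was the only gene of this list with an unadjusted p under 0.05, at 37.8, 29.7 and 33.5 CPM in the TN libraries against 23.2, 23.8 and 19.2 CPM in the HS libraries (log2 fold change -0.63, SE 0.21, FDR 0.454, edgeR). *PDK1*, which holds back pyruvate oxidation, was at 35.4 ± 8.28 CPM under HS against 50.4 ± 4.87 CPM under PF (SD, n = 3; log2 fold change -0.52, SE 0.23, FDR 0.939, edgeR). *EGLN1*, the main prolyl hydroxylase of the factors, was at 72.0 ± 16.2 CPM under PF against 48.5 ± 17.8 CPM under TN (SD, n = 3; log2 fold change 0.57, SE 0.32, FDR 0.709, edgeR), which became 0.34 without TN replicate 1 and 0.87 without TN replicate 2.

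**Figure D5:**
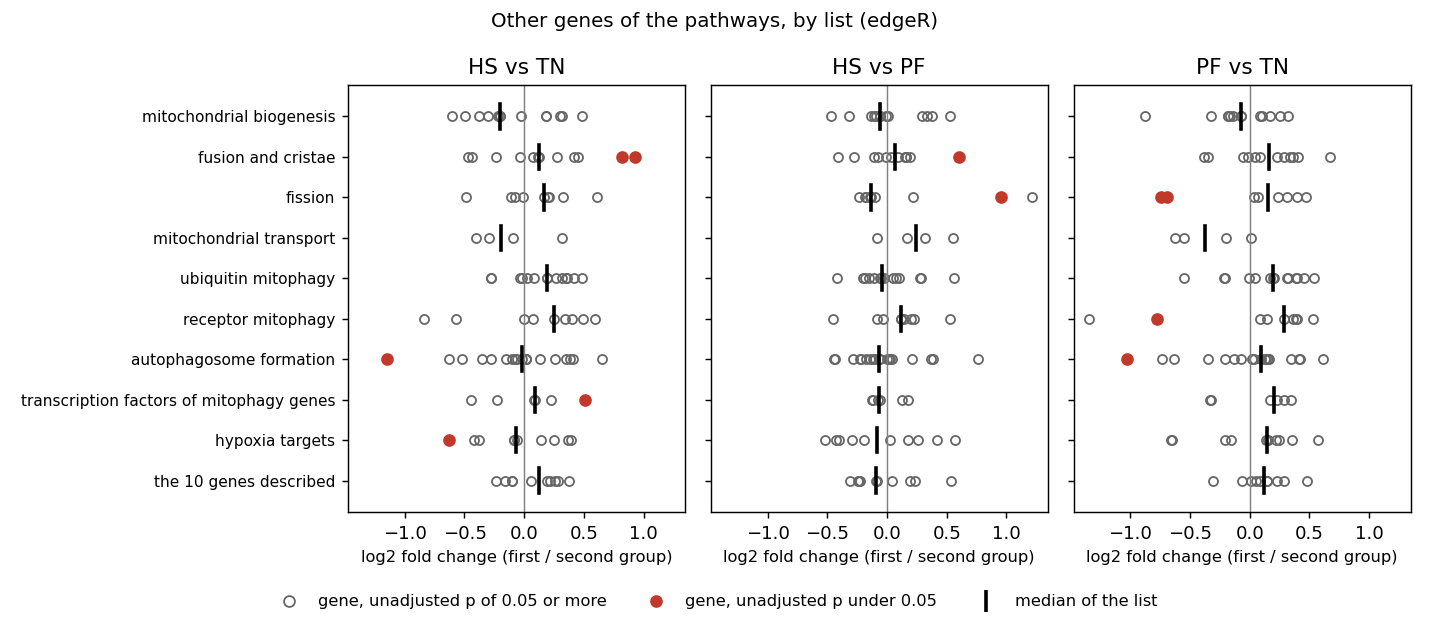
The log2 fold change (x axis) of each tested gene in 9 further lists and of the 10 genes described (rows), in the 3 comparisons. Red points have an unadjusted p under 0.05 by edgeR (0 of the 10 genes in any comparison), black bars are medians, and the point at -1.15 between HS and TN is *ULK1*.

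The nuclear genes described here can be set beside the transcripts of the mitochondrial genome in the same fits. The 13 mitochondrially encoded genes had a median log2 fold change of -1.45 between HS and TN, -0.47 between HS and PF and -0.90 between PF and TN. The 10 genes had medians of 0.12, -0.09 and 0.12, and 0.12, -0.09 and 0.11 when the mitochondrially encoded genes were left out of the library sizes.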

How the data were processed

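Per the labels and the study's methods, the authors cleaned the reads with fastp 0.23.2, aligned them to ARS-UCD1.2 with STAR 2.7.9a and deposited raw read counts per gene from featureCounts 2.0.3, without normalization. The annotation release and the strand and multi-mapping settings were not given in the sources used here. All 9 columns were mapped to a cow by the labels. For each comparison the 6 libraries concerned were fitted in edgeR 4.0.16 (R 4.3.3) with TMM, filterByExpr, a quasi-likelihood F test and Benjamini-Hochberg adjustment over all genes (FDR), and intervals came from the SE and the degrees of freedom of the fit. CPM used TMM factors of the 9 libraries. The alternatives were DESeq2 1.42.0 (the tool of the study), scaling by RLE, library sizes without the mitochondrially encoded genes, no filter, at least 10 counts in every library, a joint fit of the 9 libraries, a block for the replicate number, and each cow left out in turn. Library depth limits the precision of low genes. The members and lists were chosen with earlier results of these data known. Besides the 10 genes, the text names in each comparison and list the gene with the smallest p, except for a result that is not reported here, and every DEG; others are said to be chosen after their values were seen. RefSeq (ARS-UCD2.0), in which all 10 genes were found, served only to name overlapping genes.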

Additional observations from a re-analysis of the deposited data

How the results depend on the processing

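The number of DEGs among the 10 genes was 0 in each comparison and in the 3-group test under every alternative run, including each cow left out, and that among the further genes was 0 except with DESeq2 between HS and TN, where it was 1 (*ULK1*). Of 390 alternative fold changes of the 10 genes, 364 kept their direction, 26 turned and 0 were called. With at least 10 counts in every library, *MFN2* between PF and TN turned to -0.0038. With 1 cow left out, log2 fold changes that turned ranged between HS and TN from -0.055 to 0.39 (*PPARGC1A*), -0.068 to 0.51 (*PINK1*), -0.12 to 0.29 (*BNIP3L*), -0.017 to 0.46 (*FUNDC1*), -0.27 to 0.064 (*MFN1*), -0.15 to 0.013 (*OPA1*) and -0.37 to 0.094 (*DNM1L*). Between HS and PF they ranged from -0.32 to 0.13 (*BNIP3*), -0.17 to 0.23 (*FUNDC1*) and -0.29 to 0.25 (*MFN1*). Between PF and TN they ranged from -0.54 to 0.046 (*PPARGC1A*), -0.050 to 0.22 (*NRF1*), -0.31 to 0.27 (*PINK1*), -0.050 to 0.40 (*FUNDC1*), -0.39 to 0.15 (*MFN1*), -0.091 to 0.11 (*MFN2*) and -0.13 to 0.35 (*DNM1L*). Those that kept their sign but moved by over 1.5 times ranged from 0.15 to 0.60 (*BNIP3*) and -0.41 to -0.080 (*NRF1*) between HS and TN. Between HS and PF the ranges were 0.19 to 0.78 (*PPARGC1A*), -0.49 to -0.16 (*NRF1*), 0.029 to 0.36 (*PINK1*), -0.35 to -0.14 (*BNIP3L*), 0.10 to 0.30 (*MFN2*), -0.34 to -0.11 (*OPA1*) and -0.46 to -0.11 (*DNM1L*), and between PF and TN 0.25 to 0.68 (*BNIP3*), 0.11 to 0.52 (*BNIP3L*) and 0.033 to 0.25 (*OPA1*). The cause was not tested. The further named genes kept their direction in all 377 alternatives. They were named by their p in the same counts, so a stable direction was partly set by the choice. Cows with the same replicate number share only that number: their deviations had correlations across genes from -0.22 to 0.24, and with the replicate number as a block 0 of the 10 genes and 0 of the further genes were DEGs in each comparison. A count of 0 calls does not show that levels were equal, and with 3 cows in each group the 95% intervals reached a log2 fold change of 1.37.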
